A study of Mus musculus with 30 samples.

Results

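Transcripts of 8 genes that set mRNA decay were followed in the prefrontal cortex of mice: Btg1, Btg2, Btg3, Tob1 and Tob2 of the BTG/TOB family and Zfp36, Zfp36l1 and Zfp36l2 of the Zfp36 family. They were found by symbol among the 18240 genes of the deposited table, and all 8 were present and passed the filter on low values, a mean normalized read count of at least 10, which 16824 genes passed. The genes were chosen by measured values as well as by family: drug differences of Btg2 under fluoxetine were already known, with Tob1, Zfp36l1 and Zfp36l2 among genes singled out after their drug-treated and vehicle levels had been seen. The differences of drug-treated from vehicle-treated mice are therefore given as a description: where it is said which of these genes the fit over all genes called, that describes the values behind the choice and supports nothing. The study asked by bulk RNA-seq how loss of 1 Adnp copy and treatment with fluoxetine, a serotonin reuptake inhibitor, or lithium, a mood stabilizer, bear on cortical transcripts. All mice were C57BL/6J and were sampled at postnatal day 40. Wild-type (WT) mice on vehicle gave 8 libraries (4 female, 4 male) and Adnp heterozygous (HT) mice on vehicle gave 7 (4 female, 3 male). HT mice on fluoxetine gave 8 libraries (4 female, 4 male) and HT mice on lithium gave 7 (3 female, 4 male). No WT mouse received a drug, so a drug effect can be read in HT mice only. The mutant allele, the drug doses and the length of treatment are details that the sources used here do not give. The labels do not say whether the libraries of a group come from separate mice, so p-values measure the spread between libraries, which may be technical.

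BTG and TOB proteins share a domain that binds the CAF1 deadenylases Cnot7 and Cnot8. These are among the subunits of the CCR4-NOT complex that shorten poly(A) tails. Some members of the family, the TOB proteins among them, also bind the poly(A)-binding protein. Zfp36 proteins recognise AU-rich elements in 3' UTRs through a pair of CCCH zinc fingers and recruit CCR4-NOT to those messages, which are then deadenylated and degraded. Several of these genes are themselves early response genes: Btg2 and Zfp36 are switched on within minutes of growth factor, stress or synaptic stimulation, and in neurons Btg2 is known as an activity-regulated gene.

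The Zfp36 family transcripts carry the element their own proteins bind, so those sites are shown first. For each gene the annotated coding transcript with the longest 3' UTR was used (GENCODE, GRCm38). That 3' UTR was searched for the nonamer TTATTTATT and the heptamer TATTTAT, which lies inside it, on the transcript strand. All 3 Zfp36 family 3' UTRs held 1 nonamer and 3 heptamers. Of 14560 genes with a 3' UTR, 8.33% held a nonamer, 30.5% a heptamer and 4.28% at least 3 heptamers. No BTG/TOB 3' UTR held a nonamer. Btg3 held 2 heptamers in only 439 bases, Btg2 and Tob2 held 1 each, and Btg1 and Tob1 held 0. Each nonamer is given in capitals with 10 bases on either side, from Zfp36 (chr7:28376951-28376979, minus strand), Zfp36l1 (chr12:80108167-80108195, minus strand) and Zfp36l2 (chr17:84184914-84184942, minus strand).
Zfp36: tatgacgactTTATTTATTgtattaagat
Zfp36l1: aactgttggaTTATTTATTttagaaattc
Zfp36l2: actatttaacTTATTTATTatcttgtgaa
The flanks differ between the paralogs while the 9 letters are shared.

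Promoter windows of 300 bases, 250 before to 50 after the start site, were taken from RefSeq on GRCm38.p6 for 7 of the 8 genes (8 windows, since Btg3 has 2 start sites), and both strands were searched. The cAMP response element TGACGTCA, the site bound by CREB, was found in 1.79% of 32851 windows and among the members in Btg2, where it starts 166 bases before the start site. It is shown because Btg2 had the largest drug difference of the 8 genes. The stretch lies at chr1:134079289-134079346 on the minus strand, with the element in capitals.
Btg2: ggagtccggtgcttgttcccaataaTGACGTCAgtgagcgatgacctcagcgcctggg
The shorter motif TGACG, which the full element contains on both strands, stood in 20.8% of windows, and in Btg1 (2 copies) and Tob1 (1 copy) among the members without the full element. The Zfp36 window held the EGR site GCGGGGGCG (2.91% of windows) 105 bases before the start and a CArG box, the site of serum response factor (1.63% of windows), 58 bases before it. Both are in capitals in the stretch at chr7:28379252-28379358 on the minus strand.
Zfp36: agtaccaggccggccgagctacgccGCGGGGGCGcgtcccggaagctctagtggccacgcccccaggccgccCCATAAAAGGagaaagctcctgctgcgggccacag
A match to these letters is a description of the sequence, not of binding in these mice.

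On GRCm38, Btg2 lies at chr1:134075170-134079120, Btg1 at chr10:96617006-96622809, Tob1 at chr11:94211454-94215495, Tob2 at chr15:81848272-81858796 and Btg3 at chr16:78332637-78377192. Zfp36 lies at chr7:28376784-28380253, Zfp36l1 at chr12:80107754-80113013 and Zfp36l2 at chr17:84183931-84187947. Some values are uncertain because reads can be shared with other genes. Zfp36l1 shares 55.9% of its exonic bases with Gm26669 and Btg3 17.3% with Cxadr, both on the opposite strand. Tob2, Zfp36 and Zfp36l2 share 4.3%, 3.6% and 3.0% with antisense genes. The annotation also lists copies of Btg1 (Btg1-ps1 and Btg1-ps2) and of Zfp36l1 (Zfp36l1-ps), which were not analysed here. The library kit keeps strand, but the sources used here do not give how strand entered quantification.

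The 30 libraries held 23771758 to 34307061 assigned reads, and the lowest count of any member was 73.0, of Zfp36 in WT vehicle female 3. The symbol Adnp itself was higher in libraries labelled HT vehicle, at 2251 ± 137 (SD, n = 7) against 1898 ± 157 in WT vehicle (n = 8; log2 difference 0.26, limma adjusted p = 0.00996), so that it was not lower in the heterozygotes. Gm20716, an annotated gene that spans Adnp and can share its reads, was at 1284 to 1545 in HT vehicle and 2167 to 2622 in WT vehicle with no overlap (-0.78, adjusted p = 1.16e-06), and was looked at with its values known. Which part of Adnp the allele lacks is likewise unstated, so the Adnp count alone does not check the labels, and HT stands for the label throughout. The labelled tissue was checked against markers. Summed over 10 genes, Slc17a7 among them, cortical excitatory neuron markers were at 119600 to 183700 normalized counts, and none of them was at 0 in any library. Markers of neighbouring regions differed widely between libraries: 10 olfactory bulb and neuroblast genes summed to 2564 to 23560, and 10 striatal genes to 4634 to 37590. HT lithium male 4 (23560) and HT vehicle female 1 (21830) stood apart in the first list and HT fluoxetine female 4 (37590) and female 2 (29980) in the second. In a bulk sample, fewer cells of a type and less RNA per cell cannot be told apart. By groups, the summed olfactory bulb markers ran from 2584 to 12300 in WT vehicle, 3088 to 21830 in HT vehicle, 2564 to 12480 in HT fluoxetine and 3349 to 23560 in HT lithium. The corresponding medians were 3880, 5443, 4221 and 8201. Striatal markers had medians of 7919, 5658, 5518 and 4803 in the same order. None of the 20 genes in these lists was at 0 in all libraries, and Isl1 was at 0 in 10.

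Levels were compared between genes only per kilobase of annotated exon. Tob1 stood highest in both vehicle groups, at 336 ± 33.7 normalized counts per kilobase in WT (SD, n = 8) and 322 ± 45.6 in HT vehicle (n = 7). Btg2 came next at 233 ± 40.9 and 239 ± 47.1, and its range overlapped that of Tob1 and that of Zfp36l1 in both groups. Under the drugs Btg2 stood first, at 407 ± 58.1 per kilobase with fluoxetine (n = 8) and 489 ± 95.6 with lithium (n = 7), its range still overlapping that of Tob1. Zfp36l1 and Zfp36l2 followed in that order in all 4 groups, at 204 to 259 and 159 to 205 per kilobase. Btg1 and Tob2 came next, in either order and with overlapping ranges. Btg3, at 65.7 to 72.8 per kilobase, was next to last and Zfp36, the founding member of its family, was last in every group at 28.9 to 40.7, with no overlap between them.
Within the BTG/TOB family, Btg2 made up 27.0% ± 3.37 of the summed level per kilobase in WT vehicle and 27.5% ± 2.22 in HT vehicle. With fluoxetine it made up 37.3% ± 3.78 and with lithium 38.9% ± 3.93, so the share of Tob1 was lower (39.1% ± 0.930 and 37.1% ± 1.26 against 33.3% ± 1.79 and 33.3% ± 1.68). The Zfp36 family had a similar make-up in the group means. Zfp36l1 was at 51.2% to 52.0%, Zfp36l2 at 39.8% to 41.2% and Zfp36 at 7.36% to 8.36% of the summed level per kilobase. Single libraries varied more, with the Zfp36 share in WT vehicle running from 5.45% to 11.7% (SD 2.375, n = 8).

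**Figure D1:**
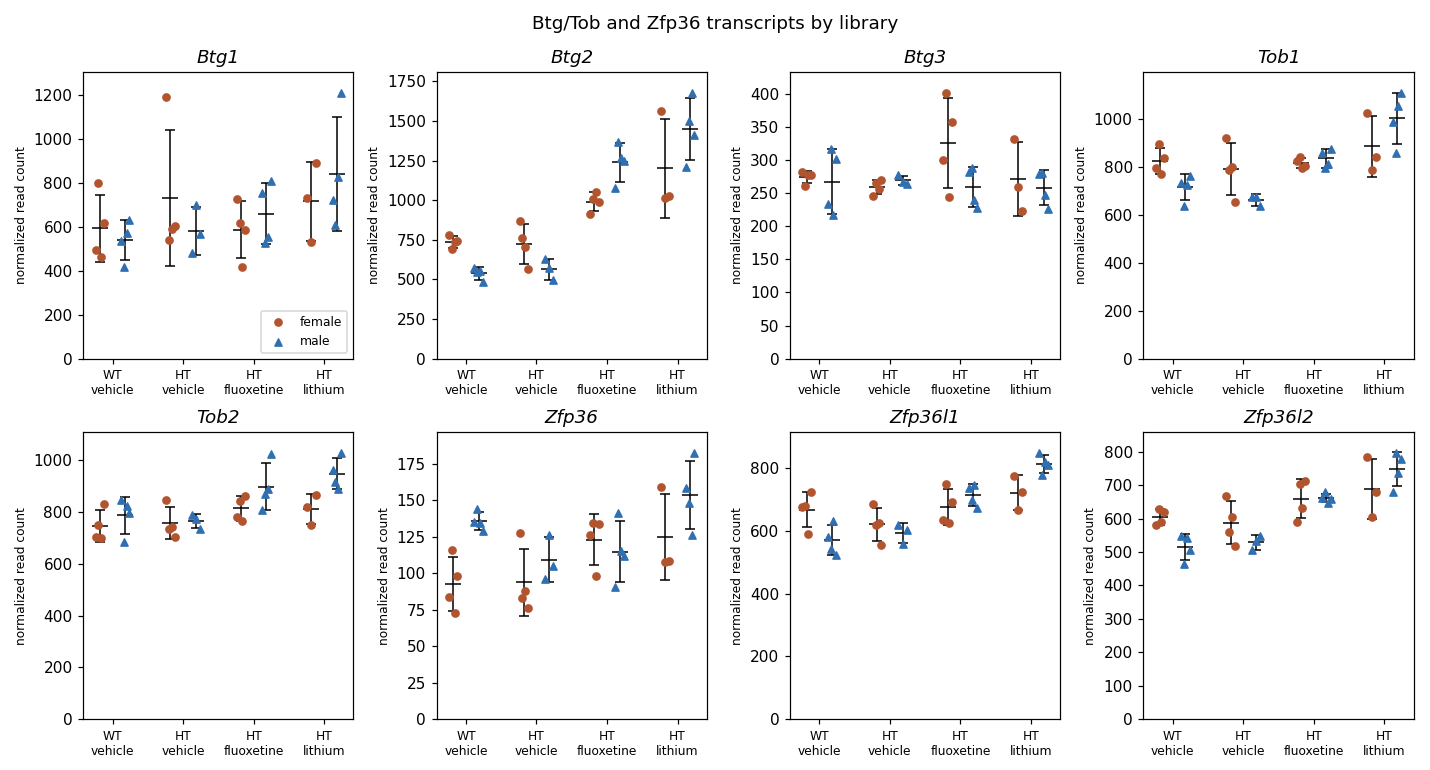
Normalized read counts of the 8 genes in each of the 30 libraries (y axis from 0), by genotype and treatment, with circles for females and triangles for males. Bars show the mean and SD of each sex within a group; Btg2 is at 912 to 1675 in the 15 drug-treated libraries and at 482 to 866 in the 15 vehicle libraries.

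Btg2 set the drug-treated mice apart. Its normalized read counts in WT vehicle were 781, 691, 739 and 742 in females and 574, 550, 551 and 482 in males. In HT vehicle they were 866, 765, 706 and 566 in females and 629, 570 and 497 in males. HT fluoxetine females had 912, 1010, 1053 and 991, and males had 1075, 1369, 1264 and 1250. HT lithium females had 1563, 1016 and 1027, and males had 1207, 1498, 1675 and 1411. All 15 drug-treated libraries (912 to 1675) thus lay above all 15 vehicle libraries (482 to 866), a separation shared by 2 of 16824 genes (0.0119%), Btg2 and Npas4, the activity-dependent transcription factor gene. Group means were 639 ± 112 in WT vehicle (SD, n = 8), 657 ± 129 in HT vehicle (n = 7), 1115 ± 159 with fluoxetine (n = 8) and 1343 ± 262 with lithium (n = 7). On the log2(normalized count + 1) scale, used for all differences, it was higher by 0.80 (SE 0.0916) with fluoxetine and by 1.03 (SE 0.0951) with lithium than in HT vehicle. Both drug comparisons use the same HT vehicle libraries and are not independent of each other.

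Tob1 and Tob2 differed less than Btg2 between drug-treated and vehicle libraries. Tob1 ran from 635 through a median of 677 to 920 in HT vehicle and from 637 through 767 to 894 in WT vehicle. With fluoxetine it ran from 796 through 818 to 876, and with lithium from 786 through 988 to 1108. The groups overlapped, but 4 of the 15 drug-treated libraries, all of them lithium, were above every vehicle library. Against HT vehicle, Tob1 was higher by 0.20 (SE 0.0642) with fluoxetine and by 0.38 (SE 0.0666) with lithium. Its lithium value leaned on HT lithium female 1, without which it was 0.32. Tob2 ran from 705 to 847 in HT vehicle, from 767 to 1024 with fluoxetine and from 751 to 1027 with lithium. It was higher by 0.17 (SE 0.0560) and 0.20 (SE 0.0581), with 9 of 15 drug-treated libraries above every vehicle library.

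Btg1 and Btg3 overlapped widely between groups. Btg1, a regulator of lymphocyte and stem cell quiescence, spanned 481 to 1191 in HT vehicle, 415 to 806 with fluoxetine and 528 to 1207 with lithium, so that the groups overlapped over most of their range. Its differences from HT vehicle were -0.05 (SE 0.187) with fluoxetine and 0.26 (SE 0.194) with lithium, with the largest standard errors of the 8 genes. Btg3 was at 246 to 277 in HT vehicle, 228 to 401 with fluoxetine and 223 to 332 with lithium. Its differences were 0.12 (SE 0.0968) and -0.01 (SE 0.10). The highest Btg3 counts, 401 and 357, came from HT fluoxetine female 2 and female 4, the libraries with the highest striatal marker sums, and the part of those markers in the values was not tested beyond the correlation given further on.

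All 3 Zfp36 family genes had differences above 0 under both drugs, each smaller than that of Btg2. Zfp36l1 ran from 557 through a median of 618 to 687 in HT vehicle and from 524 through 612 to 726 in WT vehicle. It ran from 624.6 through 697 to 749 with fluoxetine and from 668 through 780 to 848 with lithium. Ranges overlapped, though 5 of 7 lithium libraries exceeded every vehicle library. It was higher than in HT vehicle by 0.19 (SE 0.0535) with fluoxetine and by 0.34 (SE 0.0555) with lithium. Zfp36l2 ran from 505 through 548 to 667 in HT vehicle and from 463 through 565 to 630 in WT vehicle. With fluoxetine it ran from 591 through 660 to 712 and with lithium from 605 through 737 to 795. Here 9 of the 15 drug-treated libraries were above every vehicle library, and the differences from HT vehicle were 0.25 (SE 0.0576) and 0.36 (SE 0.0598). Zfp36, which encodes tristetraprolin, ran from 76.4 to 127 in HT vehicle, from 90.5 to 142 with fluoxetine and from 108 to 182 with lithium, with wide overlap. Its differences were 0.23 (SE 0.124) and 0.45 (SE 0.129), and its standard errors were the largest in its family.

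Across the 8 genes the median difference was 0.20 with fluoxetine and 0.35 with lithium, with 7 of 8 above 0 in each, beside medians of -0.0016 and -0.0039 over all 16824 genes. Genes called by limma (adjusted p under 0.05 over all genes) included 1 member with fluoxetine, Btg2, where 0.0357% of genes were called, all higher. With lithium they included 4, Btg2, Tob1, Zfp36l1 and Zfp36l2, where 0.0892% were called, all higher. With only the compared groups in the fit, Tob1 and Zfp36l2 were not called, at lithium differences of 0.38 and 0.36, and Tob1 was not called without HT lithium female 1. Since these values led to the choice of genes, nothing is read from the counts. Adding the summed olfactory bulb and striatal markers as covariates, a setting chosen after the data were seen, left the lithium differences of Btg2, Tob1, Zfp36l1 and Zfp36l2 at 1.03, 0.33, 0.35 and 0.36. That of Btg1 became 0.08, from 0.26.
Set against WT vehicle, which shares the drug libraries, Btg2 was higher by 0.81 (SE 0.0880) with fluoxetine and 1.05 (SE 0.0916) with lithium. Btg1 was at 0.14 (SE 0.18) and 0.44 (SE 0.187) in the same comparisons, Tob1 at 0.11 (SE 0.0617) and 0.29 (SE 0.0642), and Zfp36 at 0.08 (SE 0.119) and 0.30 (SE 0.124). Genes called, again from values behind the choice, included 2 members with fluoxetine (Btg2 and Zfp36l2, beside 1.24% of genes called higher) and 4 with lithium (the same 4 as against HT vehicle, beside 1.40%). Zfp36l2 was at 0.24 (SE 0.0554) with fluoxetine in that comparison, and it was not called without HT fluoxetine female 2 (0.23), HT fluoxetine female 4 (0.22) or WT vehicle male 2 (0.22). Without HT lithium female 1, Tob1 fell out of the lithium calls there too, at 0.23.

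**Figure D2:**
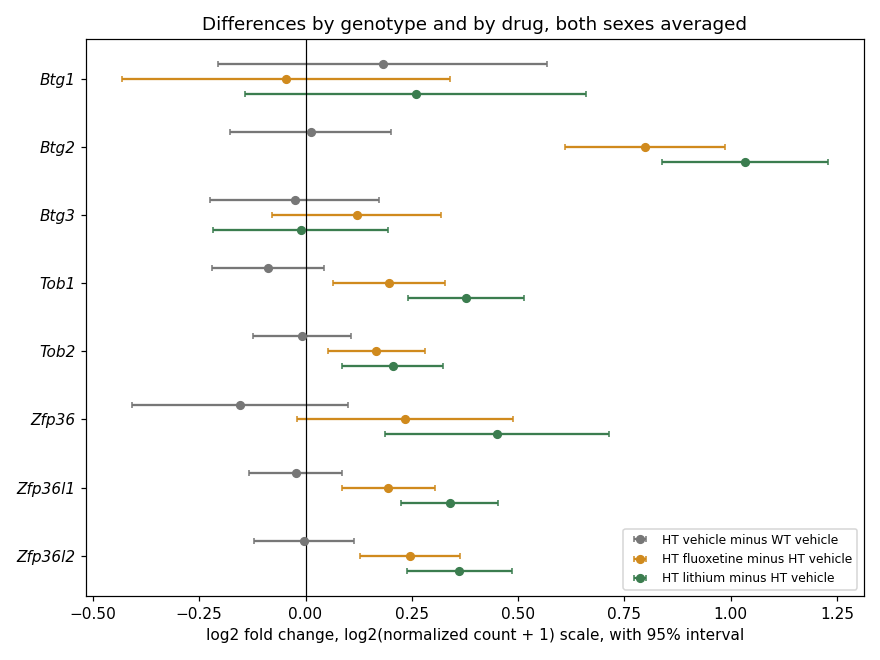
Difference in log2(normalized count + 1) for each gene, with its 95% interval from the fit over all 30 libraries, for HT vehicle minus WT vehicle (grey), HT fluoxetine minus HT vehicle (orange) and HT lithium minus HT vehicle (green). Grey intervals all include 0, Btg2 has the largest drug values at 0.80 and 1.03, and Btg1 has the widest intervals.

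Loss of 1 Adnp copy on vehicle was tested, since the choice of genes did not rest on the genotype difference. The HT vehicle libraries are also the reference of the drug differences behind that choice, so the test is not fully independent of it. No member passed (0 of 8, beside 0.731% of all genes called), and 0 of 8 reached an unadjusted p under 0.05, as 1111 of 16824 genes did (6.60%). edgeR and DESeq2 on the recovered reads also called 0 members. Btg2 was at 657 ± 129 in HT (SD, n = 7) and 639 ± 112 in WT (n = 8), a difference of 0.01 with a 95% interval of -0.18 to 0.20 (limma adjusted p = 0.993). The narrowest intervals were those of Zfp36l1 (-0.02, -0.13 to 0.09), Tob2 (-0.01, -0.12 to 0.11) and Zfp36l2 (-0.004, -0.12 to 0.11). Tob1 was lower by 0.09 in HT (interval -0.22 to 0.04). Larger differences fit within the intervals of Zfp36 (-0.15, -0.41 to 0.10) and Btg1 (0.18, -0.20 to 0.57). These values do not show that the genotypes are alike beyond those bounds.

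Fluoxetine and lithium were compared directly within HT mice, n = 8 and 7. These drug-treated libraries are among those whose levels led to the choice of genes. The values of the members are therefore a description, and their p-values support nothing. 7 of 8 members were lower with fluoxetine, with a median difference of -0.16, beside 0.0010 over all genes. None passed (0 of 8, beside 0% of genes called by limma, 1154 genes or 6.86% at an unadjusted p under 0.05 and 13 genes called by DESeq2). Tob1 differed by -0.18 (interval -0.31 to -0.05, limma unadjusted p = 0.00866, adjusted p = 0.606) and Btg2 by -0.23 (-0.42 to -0.05, unadjusted p = 0.0167, adjusted p = 0.649). Zfp36l1 differed by -0.14 (-0.25 to -0.03, unadjusted p = 0.0122, adjusted p = 0.619). These 3 were the members with an unadjusted p under 0.05. Regional markers leaned 1 way within each list in the same comparison. All 10 olfactory bulb genes were lower with fluoxetine (median -0.95), all 9 meningeal fibroblast genes were lower (median -0.23) and all 10 striatal genes were higher (median 0.56). None of these marker genes was called or had an unadjusted p under 0.05 by limma. Genes of 1 list can vary together across libraries, so a shared direction is not a set of separate results. Btg1, Tob1 and Tob2 were correlated with the olfactory bulb markers, as given further on, and the part of these markers in the differences was not tested beyond a fit with marker covariates, chosen after the data were seen. In that fit Btg1 stood at -0.115 (from -0.31), Tob1 at -0.13, Btg2 at -0.24 and Zfp36l1 at -0.14. Fluoxetine levels of Tob1 stayed within a narrow band (SD 29.6) and those with lithium were spread (SD 122).

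Females and males were compared over all groups and within each. Averaged over groups, no member passed the test for sex (0 of 8, beside 0.214% of genes called). The largest values were 0.25 for Zfp36 (males higher, limma adjusted p = 0.370) and 0.12 for Tob2 (adjusted p = 0.363), both with an unadjusted p under 0.01 (0.00789 and 0.00724). In WT vehicle, Btg2 was at 738 ± 36.6 in females and 539 ± 39.9 in males (SD, n = 4 each) with no overlap. Tob1 (824 ± 54.9 against 715 ± 54.5) and Zfp36l2 (606 ± 23.4 against 515 ± 39.0) also separated with females higher, as did 1.40% of genes. Zfp36 went the other way, at 92.6 ± 18.7 in females and 136 ± 6.13 in males, with males higher and no overlap, as did 1.59% of genes. In HT fluoxetine Btg2 was at 991 ± 58.8 in females and 1239 ± 122 in males with males higher and no overlap, as for 1.37% of genes. With lithium, Tob2 (812 ± 58.3 against 948 ± 60.4) and Zfp36l1 (723 ± 54.8 against 815 ± 28.3) had higher males without overlap, as did 4.50% of genes. In HT vehicle the sexes overlapped for every member, with Btg2 at 566 to 866 in females and 497 to 629 in males. Tested for sex within each group, no member was called, beside 0.0594% to 0.119% of genes. For Btg2 the limma adjusted p was 0.461 in WT vehicle and 0.71 in HT fluoxetine.
Whether a drug difference depended on sex was fitted in the same libraries whose levels led to the choice of genes. The values of the members are therefore a description, and their p-values support nothing. Both drugs were also set against the same HT vehicle libraries. The test called 0 members for either drug. It called 0% of genes by limma, with 1002 genes at an unadjusted p under 0.05 for fluoxetine and 1684 for lithium, while DESeq2 called 1 gene for fluoxetine. For Btg2 the fluoxetine difference was 0.47 in females and 1.13 in males, which differ by 0.67 (interval 0.29 to 1.04, limma unadjusted p = 0.0012, adjusted p = 0.779). With lithium the values were 0.71 and 1.35, which differ by 0.64 (0.25 to 1.03, unadjusted p = 0.0025, adjusted p = 0.470). Tob1 had a difference between the sexes of 0.43 under lithium (0.15 to 0.70, unadjusted p = 0.00342, adjusted p = 0.470). Under fluoxetine that of Tob1 was 0.28 (limma unadjusted p = 0.0400, adjusted p = 0.779). Zfp36l2 (0.27) and Zfp36l1 (0.24) differed under lithium with limma unadjusted p of 0.0335 and 0.0399 (adjusted p = 0.485 and 0.487). In females and males the lithium differences were 0.16 and 0.59 for Tob1, 0.22 and 0.46 for Zfp36l1 and 0.23 and 0.50 for Zfp36l2. The regional markers moved with the same contrast: the median sex difference of the fluoxetine effect was 2.05 over 10 olfactory bulb genes and -1.98 over 10 striatal genes, with 1.93 and -2.05 for lithium. With those markers as covariates the Btg2 values stayed at 0.66 and 0.64, and that of Tob1 under lithium was 0.31.

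Members varied together to different degrees across the 30 libraries. The closest pairs were Btg2 with Zfp36l2 (Pearson r = 0.90), Zfp36l1 with Zfp36l2 (0.88), Btg2 with Zfp36l1 (0.85) and Tob1 with Zfp36l2 (0.85). These libraries share the drug groups, and after the 8 group means were taken out the same pairs stood at 0.56, 0.59, 0.39 and 0.60. Btg3 stood outside, with r between -0.26 and 0.13 to each of the other 7. These are descriptions over libraries that share treatment and tissue make-up, with no test.

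**Figure D3:**
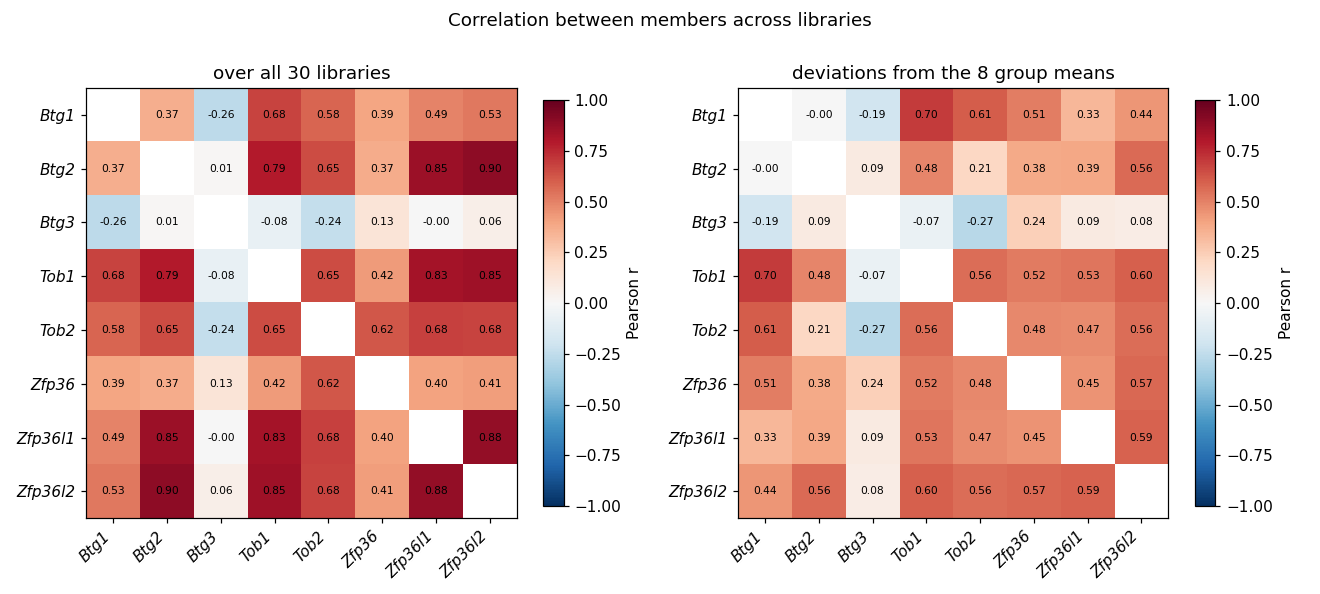
Pearson correlation of log2(normalized count + 1) between the 8 genes, over all 30 libraries (left) and for deviations from the 8 group means (right), with the value written in each cell. Btg2, Tob1, Zfp36l1 and Zfp36l2 form the reddest block on the left, and Btg3 has pale cells throughout.

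Among 12804 genes with a mean count of at least 50, those most like each member in pattern were found by Pearson correlation over all 30 libraries. Btg2 was closest to Npas4 (0.957), Fos (0.946) and Nr4a1 (0.935), immediate early transcription factor genes, with 0.726, 0.713 and 0.723 within groups. Zfp36l2 was closest to Npas4 (0.897), Btg2 (0.895) and Fos (0.891), with 0.651, 0.565 and 0.741 within groups. Zfp36l1 was closest to Zfp36l2 (0.882), Btg2 (0.852) and Npas4 (0.839), and within groups these stood much lower, at 0.590, 0.387 and 0.415. Tob1 was closest to Zfp36l2 (0.846), Npas4 (0.838) and Zfp36l1 (0.832), with 0.599, 0.699 and 0.532 within groups. Tob2 was closest to the salt-inducible kinase gene Sik1 (0.853), the AP-1 gene Fosl2 (0.852) and the histone demethylase gene Kdm6b (0.792), with 0.657, 0.714 and 0.769 within groups. Zfp36 was less closely matched, by Esyt1 (0.745), Rcsd1 (0.735) and Mylk (0.734), the gene of myosin light chain kinase, with 0.537, 0.553 and 0.669 within groups. Btg3 was matched least, by Sdf2l1 (0.725), Tmem126a (0.663) and Rit2 (0.655), with 0.644, 0.682 and 0.606 within groups. Btg1 had the tightest match of all, to the interneuron homeobox gene Dlx2 (0.967), Trim67 (0.966) and Rbmx (0.962), with 0.967, 0.964 and 0.970 within groups. Dlx2 is also among the olfactory bulb and neuroblast markers set against Btg1 below, so those results are not separate.

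Btg1 followed the olfactory bulb and neuroblast markers. Its 2 highest libraries, HT lithium male 4 (1207) and HT vehicle female 1 (1191), were the 2 with the highest marker sums. Over 30 libraries, log2 Btg1 and the log2 marker sum had a Pearson r of 0.927 and a Spearman rho of 0.902. The permutation p was 1e-05 for both, the smallest that 100000 permutations can give, and 0.00104 after Benjamini-Hochberg adjustment over the 104 relations of 8 genes with 13 marker lists. Within groups r was 0.919, and without those 2 libraries, which lie farthest from the median, it was 0.896. Tob1 (r = 0.661, rho = 0.704, adjusted permutation p = 0.0013 for r) and Tob2 (r = 0.550, rho = 0.573, adjusted p = 0.0153) followed the same markers less closely, with 0.678 and 0.504 within groups. Btg2 did not pass (r = 0.344, rho = 0.365, adjusted p = 0.162), and its r within groups was -0.03. Btg3 against the striatal sum did not pass either (r = 0.348, rho = 0.262, adjusted p = 0.162), and r was -0.03 without HT fluoxetine female 2 and female 4. With the marker covariates, chosen after the data were seen, the standard error of the Btg1 lithium difference went from 0.194 to 0.0524 and its genotype difference from 0.18 to 0.05.
Of the 104 relations, 16 passed by r and 10 of those also by rho. Besides the 3 with olfactory bulb markers, Btg1 passed by both with choroid plexus (r = 0.691), inhibitory neuron (0.679), endothelial and mural (0.667), meningeal fibroblast (0.631) and cortical excitatory neuron markers (-0.608). Within groups these stood at 0.786, 0.819, 0.660, 0.691 and -0.629. Without the 2 libraries farthest from the median for each list, r was 0.586, 0.481, 0.528, 0.453 and -0.56. HT lithium male 4 was 1 of the 2 for every list, so these relations are not separate results. Btg2 passed by both with oligodendrocyte precursor markers alone (r = -0.562, rho = -0.605, adjusted permutation p = 0.0151 for r), with an r of -0.03 within groups. Tob1 passed with the same markers (r = -0.520, rho = -0.600, adjusted permutation p = 0.0255 for r), with -0.18 within groups. Passing by r but not by rho, endothelial and mural markers went with Tob1 (0.560), Tob2 (0.557) and Zfp36l1 (0.505), with 0.428, 0.128 and 0.018 within groups. With HT lithium male 4 and male 3 left out, r was 0.285, 0.407 and 0.325. Likewise by r alone, meningeal fibroblast markers went with Zfp36 (0.598) and Tob2 (0.535), and choroid plexus markers with Tob2 (0.489), with 0.305, 0.224 and 0.448 within groups. With HT lithium male 4 and WT vehicle female 3 left out, r was 0.384, 0.310 and 0.301. No relation of Btg3 or Zfp36l2 passed. The permutation p-values were taken over all 30 libraries, so they also hold the drug and vehicle levels behind the choice of genes. For Btg2 and Tob1 with oligodendrocyte precursor markers, and for Zfp36l1 and Tob2 with endothelial and mural markers, r was much weaker within groups. It was also weaker there for Tob2 and Zfp36 with meningeal fibroblast markers. Passing in these relations describes levels between groups and supports no relation within them.

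**Figure D4:**
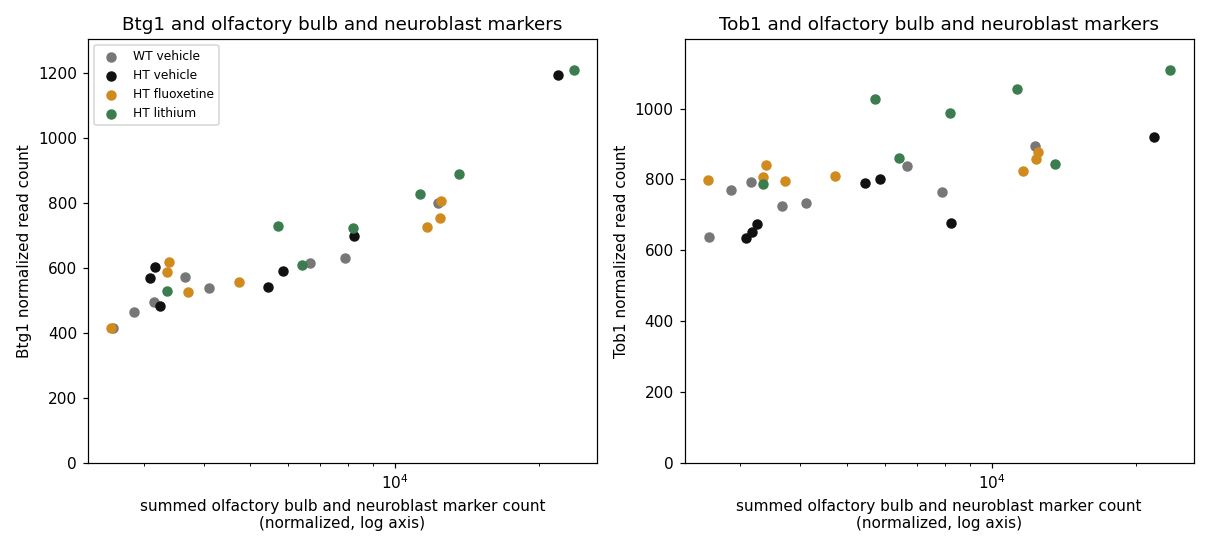
Normalized read counts of Btg1 (left) and Tob1 (right) against the summed normalized count of 10 olfactory bulb and neuroblast markers (log axis) in the 30 libraries, coloured by group. Btg1 is higher at higher marker sums in all 4 groups, up to 1207, while Tob1 shows a looser relation, with 4 lithium libraries above all the others.

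In the machinery that the members recruit, no gene passed the test for genotype or drug. All 12 CCR4-NOT genes were tested, and 0 passed by limma for genotype, fluoxetine or lithium, with medians of 0.01, -0.01 and 0.002. Cnot6l, 1 of the catalytic deadenylase genes, had the smallest p with fluoxetine (-0.07, limma adjusted p = 1.0) and Cnot10 with lithium (-0.04, adjusted p = 0.879). Other deadenylase and poly(A)-binding genes (11 of 11 tested) and decapping and 5'-to-3' decay genes (18 of 19) also had 0 calls in these 3 comparisons. Their medians lay between -0.007 and 0.021. Other factors that bind AU-rich elements or recruit deadenylases, such as the Elavl, Argonaute, Pumilio and Cpeb genes (26 of 26 tested), had 0 calls and medians of 0.003, 0.001 and -0.009. Within that list Ago2 had the smallest p with lithium, at 3854 ± 392 (n = 7) against 4327 in HT vehicle (-0.18, limma adjusted p = 0.820).

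Of 24 textbook Zfp36 targets, 14 could be tested, and the medians were -0.01 for genotype, 0.005 for fluoxetine and 0.13 for lithium. Of the 14, 0, 1 and 2 were called, beside 0.731%, 0.0357% and 0.0892% of all genes. The calls were Fos, the AP-1 gene, with both drugs (0.78 with fluoxetine, limma adjusted p = 5.01e-05, and 0.91 with lithium, adjusted p = 6.08e-06) and the MAP kinase phosphatase gene Dusp1 with lithium (0.52, adjusted p = 0.00156). Fos and Dusp1 are also on the list of neuronal immediate early genes. Genes with a nonamer in the 3' UTR (1210 tested) had medians of -0.001 with fluoxetine and -0.008 with lithium, beside -0.003 and -0.004 over 14552 tested genes with a 3' UTR. The 8 members were left out of both sets. Of the 1210 genes with a nonamer, 1 was called with fluoxetine and 2 with lithium, beside 5 and 10 of the 14552.

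Neuronal immediate early genes were mostly higher under both drugs, as Btg2 was. This list was drawn up with earlier results of these libraries known, so its direction is not independent evidence. Of 36 tested, 36 were above 0 with fluoxetine (median 0.29) and 32 with lithium (median 0.31), and 5 and 8 were called, all higher. Npas4 rose by 1.01 with fluoxetine (limma adjusted p = 5.26e-06) and by 1.21 with lithium (adjusted p = 2.78e-07). In HT vehicle against WT vehicle 0 of 36 were called and the median was -0.005. For sex, Per1 (0.31, limma adjusted p = 0.000159) of this list and Nfkbia (0.24, adjusted p = 0.0122), an NF-kB inhibitor gene among the Zfp36 targets, were higher in males.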

How the data were processed

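Bulk RNA-seq was made from prefrontal cortex of 30 libraries in 8 groups of genotype, treatment and sex, which the labels assign to 1 batch. The authors deposited 1 table of normalized signal per gene. The tools that the submitters' processing notes name are DESeq2 1.19.11 in R 3.6.0 and Salmon 0.11.2, with build GRCm38. The sources used here do not give the annotation release, filters or strand setting. Each deposited signal value proved to be a whole read count divided by 1 factor per library: 100% of values came out whole within 0.01. Symbols were matched for 18227 of 18240 genes (GENCODE M21), and the other 13 kept their IDs.

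The members and gene lists were chosen with earlier results of these data known. Differences were fitted with limma 3.58.1 (R 4.3.3; trend, robust) on log2(value + 1), for 16824 genes with a mean of at least 10, in 1 model of 8 group means with 22 residual degrees of freedom. P-values were Benjamini-Hochberg adjusted over all genes, with a threshold of 0.05. A difference averages both sexes equally, and this scale understates changes of low genes. Named genes were the 8 members, up to 4 called genes per pathway list and comparison with the smallest p (or the 1 with the smallest p where none was called), and the 3 genes most correlated with each member. Of these, the text gives a selection. Alternatives were edgeR 4.0.16 and DESeq2 1.42.0 on recovered reads, other pseudocounts, filters and scalings, a replicate block and libraries left out. The fit was tested on simulated data for the genotype comparison over 16824 genes: 80 of 100 genes changed 1.5-fold and 96 of 100 changed 2-fold were called, with 9 false calls. Replicates in all 42 pairs within groups differed by more than sampling noise. Intervals cover 95%. A cortical marker is not reported here and was left out of its list.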

Additional observations from a re-analysis of the deposited data

Results flagged for a closer look

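For the 8 genes, 80 sets of 4, 7 or 8 libraries (1 sex within a group, or a whole group) were tested for a single library far from the rest. About 1 in 20 sets would be picked out by chance, and Btg1 in HT vehicle was picked out both among females and in the whole group. HT vehicle female 1 had a Btg1 count of 1191, and the nearest of the 4 HT vehicle females had 601.1. Among all 7 HT vehicle libraries the nearest had 697.8. The same library had an olfactory bulb marker sum of 21830, the highest in its group.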

How the results depend on the processing

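For the 8 genes, genotype, drug and sex differences were refitted with other pseudocounts, no filter, TMM scaling, edgeR, DESeq2, only the compared groups, a replicate block, and libraries left out, and, chosen after the data were seen, with regional marker covariates. Drug-against-vehicle values led to the choice of genes, so their refits are a description and no sign of stability. Titles number replicates alike in all groups, but same-numbered libraries did not deviate together (median r = -0.01 over 99 pairs), and nothing in the labels says that the numbers pair them. The replicate block left 4 members called with lithium and 1 with fluoxetine, and made 5 for lithium against WT. The deposited table's column names number the lithium females 1, 3 and 4 where titles have 1, 2 and 3. By those numbers, a setting chosen after the data were seen, the median r was 0.0033 over 98 pairs, and the block called 4, 1 and 4 members.

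With only the compared groups in the fit, lithium had 2 members called in place of 4, with Tob1 at 0.38 and Zfp36l2 at 0.36 as before, and 5 genes in all in place of 15. That fit called 11 genes for fluoxetine (in place of 6) and 208 for lithium against WT (in place of 332). DESeq2 called 12 genes for fluoxetine, 13 between the drugs (in place of 0), 79 for sex (in place of 36) and 1 for the sex dependence of fluoxetine. Marker covariates gave 2 member calls for fluoxetine (Zfp36l2 at 0.25) and 13 genes, 263 genes for genotype (in place of 123), 623 for fluoxetine against WT (in place of 251), 11 between the drugs and 169 for sex. The cause was not tested.

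Leaving out 1 library gave 3 to 7 genes called for fluoxetine (3 on omission of females 2 or 4 or males 2 or 4 from HT fluoxetine, or of females 2 or 4 or males 1 or 2 from HT vehicle). It gave 8 to 16 for lithium (8 without HT lithium female 1, 9 without HT lithium male 3) with 3 to 4 members. It gave 1 to 2 members and 176 to 267 genes for fluoxetine against WT, and 3 to 5 members and 196 to 503 genes for lithium against WT (196 on omitting HT lithium female 3, 219 for WT vehicle female 3 and 503 for HT lithium male 2). It gave 0 to 4 between the drugs (4 without HT lithium female 1), 28 to 52 for sex and 0 to 2 for the sex dependence of lithium (2 without HT lithium female 1, 1 without HT vehicle female 4).

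Signs turned only for uncalled differences (values with 1 library omitted are given as a range). For genotype these were Btg2 (-0.0020 with the block, -0.0051 with the column-name block, -0.0334 without the 2 libraries highest in olfactory bulb markers, -0.0334 to 0.0688), Tob2 (0.0048 and 0.0055 with those blocks, -0.0415 to 0.0179), Zfp36l2 (0.0019 by edgeR, 0.00041 by DESeq2, -0.0351 to 0.026), Btg3 (-0.0719 to 0.0184) and Zfp36l1 (-0.0524 to 0.0024). Btg1 with fluoxetine was 0.0849 without those 2 libraries (-0.11 to 0.0849). Btg3 with lithium was 0.0018 by edgeR, 0.00095 by DESeq2, 0.0141 with the column-name block, 0.0065 without the 2 libraries and 0.0308 with covariates (-0.0886 to 0.0544), and against WT it was 0.0079 with covariates (-0.114 to 0.0293). For sex, Btg1 was -0.0154 by edgeR, -0.0155 by DESeq2 and -0.0339 with covariates (-0.0484 to 0.0675), Zfp36l1 was 0.0046 without the 2 libraries (-0.0228 to 0.0050), and Btg2 ran from -0.0778 to 0.0018. For the sex dependence of genotype, Btg1 was 0.119 (-0.297 to 0.119) and Tob1 0.0352 (-0.129 to 0.0352) without the 2 libraries, and Btg2 ran from -0.0087 to 0.196. For that of lithium, Zfp36 was -0.173 without the 2 libraries and -0.0227 with covariates (-0.0875 to 0.252), and Btg3 ran from -0.245 to 0.0411. The lowest count of any member was 73.0, of Zfp36.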
